A study of Mus musculus with 8 samples.

Results

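The genes described here encode parts of the contractile cytoskeleton: the tropomyosins Tpm1, Tpm2, Tpm3 and Tpm4, the smooth muscle type proteins Acta2, Tagln, Myl9 and Cald1, the actin crosslinker Actn1, and vimentin (Vim). They are 10 of the 55357 genes in the count table, and they were listed by name, selected on their measured difference between So(d18:1) and control in these same libraries. These differences are therefore given as a description, with no p-value. Whether a gene passed the threshold of the fit over all genes is stated, and supports nothing further. The cells were bone marrow-derived macrophages (BMDM) of wild-type C57BL/6J mice, grown from marrow with M-CSF, a growth factor for macrophages. The 4 control libraries came from BMDM kept with methanol for 6 h. The 4 So(d18:1) libraries came from BMDM kept for 6 h with 2 μM sphingosine, a sphingoid base with 1 double bond, dissolved in methanol. The labels name no inflammatory stimulus, whereas the study's text places the cells under one. The labels also do not say whether replicates came from separate mice, and the study calls them biologically independent.

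Tropomyosins are coiled-coil proteins that lie along actin filaments and set which other proteins, myosin among them, can bind there. Each of the 4 genes gives several proteins through different start sites and splicing. Macrophages use non-muscle forms in the cell cortex, in podosomes (adhesive actin structures) and around phagosomes. Smooth muscle cells and myofibroblasts instead carry large amounts of Acta2, Tagln, Myl9 and Cald1, and many of these genes are bound by SRF (serum response factor) with cofactors of the myocardin family. Free actin monomers hold the cofactors Mrtfa and Mrtfb inactive. Vimentin builds the intermediate filaments of mesenchymal cells and leukocytes.

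SRF binds the CArG box, which is a pair of C, then 6 bases that are A or T, then a pair of G. The box reads as itself on the other strand, so that 1 search covers both strands. RefSeq promoters on GRCm38.p6 were found for 9 of the 10 genes (11 promoters), and the 250 bases before each start were searched. Of the genes with a promoter there, Myl9 was the 1 gene with a full box in the bases searched. Boxes farther away, at other starts or in the gene without a promoter would be missed, so a gene without a match may still have one. Acta2, Tpm3 and a further place in Myl9 held a box with 1 of the 6 inner bases replaced by C or G. Over all 32851 promoters of the same length, 1.47% held a full box and 8.59% held a full box or one with 1 such change. The windows of 30 bases below show these matches with the box in capitals, because the CArG box is the sequence that SRF binds. The first Myl9 window holds a full box, and all the others hold a box with 1 change. A match is a description of the letters and does not show binding.
Myl9, chr2:156775293-156775322, plus strand, box from 161 bases before the start: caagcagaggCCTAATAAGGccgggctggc
Myl9, chr2:156775355-156775384, plus strand, box from 99 bases before the start: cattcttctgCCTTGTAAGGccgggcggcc
Acta2, chr19:34255438-34255467, minus strand, box from 84 bases before the start: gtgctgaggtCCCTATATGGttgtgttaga
Acta2, chr19:34255388-34255417, minus strand, box from 34 bases before the start: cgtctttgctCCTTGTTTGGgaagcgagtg
Tpm3, first start, chr3:90072575-90072604, plus strand, box from 66 bases before the start: gctagaaagaCCATGTTAGGaagaagaggt
Tpm3, second start, chr3:90079454-90079483, plus strand, box from 57 bases before the start: aaccccgcccCCTTTACTGGactaaggaaa
The Myl9 boxes lie before the start of the gene with the fewest reads of the group, and the Tpm3 boxes lie before separate starts of the most abundant tropomyosin gene.

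Total counts lay between 17748397 and 26088609 per library. Levels are given as CPM, the counts of a gene relative to the library total after TMM scaling (factors of 0.989 to 1.01). Of the genes listed, 14514 had enough counts to be tested with edgeR's quasi-likelihood test, and 1298 of them (8.94%) had a Benjamini-Hochberg adjusted p under 0.05. Adgre1 (F4/80), the defining macrophage marker, had a mean of 2213 ± 60.9 CPM in control BMDM and of 2187 ± 84.0 CPM with So(d18:1) (SD, n = 4 each). Of the 10 macrophage markers, 8 were lower and 2 higher with So(d18:1) (median log2 fold change -0.14), and Itgam rose (0.18), and Cd68 (-0.22) and Mertk (-0.38) fell. Their sum was 31423 to 33812 CPM in control and 27253 to 32179 CPM in So(d18:1) libraries, 3 of which were below the lowest control library. Smooth muscle and pericyte markers were low, with 3 of 10 tested. Myh11 had 0 to 4 counts per library and Cnn1 0 to 5, and Des, with 2 to 43, rose past the threshold. The fibroblast marker Pdgfra had 0 to 6 counts per library, and Col1a1, another, had a log2 fold change of -0.23 (adjusted p = 0.714). In bulk libraries, fewer cells of a type and less RNA per cell cannot be told apart.

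In control BMDM the 10 genes covered a wide range of levels. Divided by exon length, Vim was highest at 140.3 CPM per kilobase (range over 4 libraries 127 to 153). Tpm3 followed at 85.0 (83.4 to 86.5), Tpm4 at 32.4 (29.6 to 36.1), Actn1 at 23.5 (20.8 to 25.9), Tpm1 at 5.68 (5.45 to 5.78) and Acta2 at 1.60 (1.45 to 1.69), all in CPM per kilobase. The ranges of these 6 genes did not overlap. Tagln (0.399), Myl9 (0.363), Cald1 (0.292) and Tpm2 (0.245 CPM per kilobase) came last, below Acta2 without overlap, and each of these 4 overlapped the next of them in the order. Vim, Actn1 and 3 of the tropomyosins stood above the smooth muscle type genes. By the longest coding length instead of exon length, 4 of the 10 genes kept their place, with Tpm3 above Vim.

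**Figure D1:**
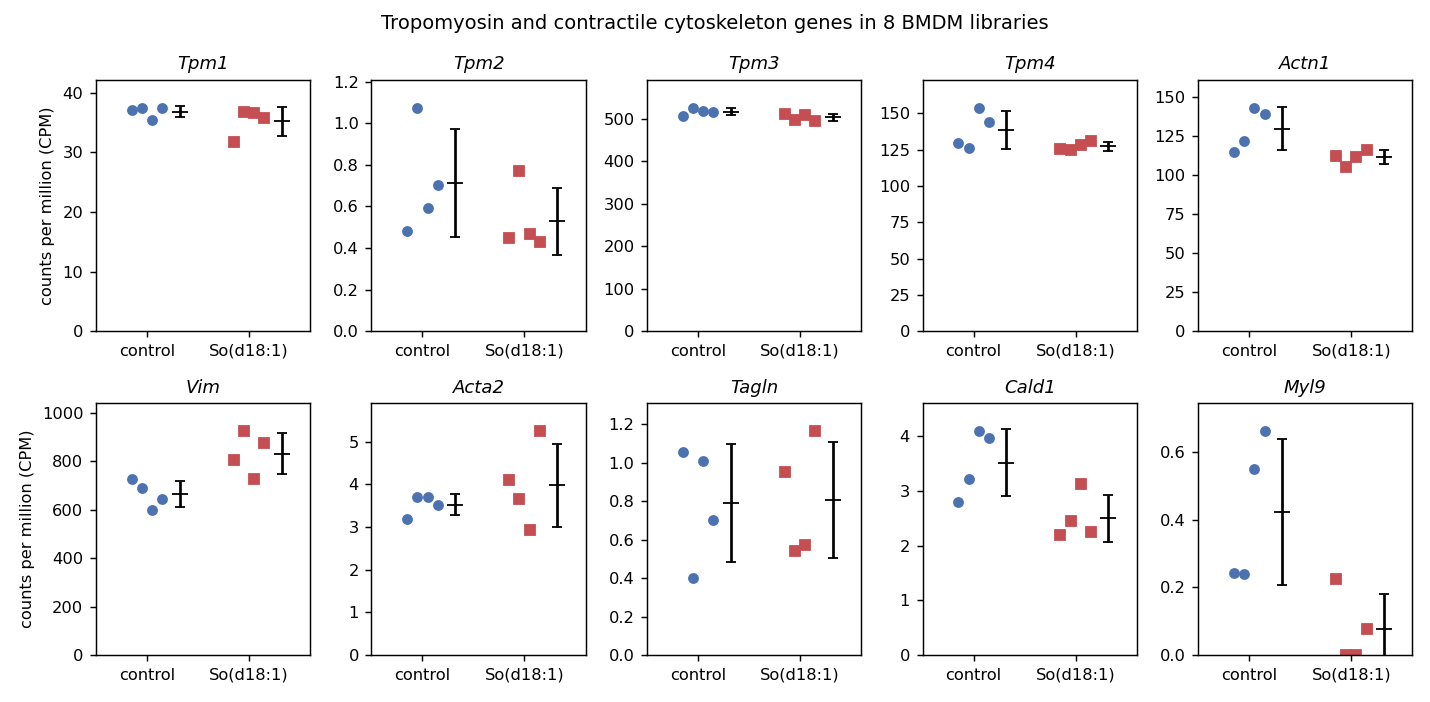
Level of each of the 10 genes (CPM, axes from 0) in 4 control libraries (circles) and 4 So(d18:1) libraries (squares), with mean and SD as bars. Vim stands higher and Actn1 lower with So(d18:1), Myl9 is at 0 in 2 So(d18:1) libraries, and Tpm1 and Tpm3 stay close to their control levels.

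The tropomyosin mRNA of BMDM was mainly Tpm3 and Tpm4, and neither changed past the threshold. Tpm3 (ENSMUSG00000027940, chr3:90072649-90100902, GRCm38) gives the short non-muscle tropomyosins of most cells. It read 507, 526, 518 and 517 CPM in control libraries and 512, 498, 509 and 494 CPM in So(d18:1) libraries. The groups overlapped, and the log2 fold change was -0.039 (SE 0.039), with a 95% interval of the fold from 0.920 to 1.03. Of its 50-base words, 23.2% also occur in other genes. Among these is the retrogene Tpm3-rs7, which had 664 to 1037 counts per library, so that the division of reads between Tpm3 and Tpm3-rs7 is uncertain.

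Tpm4 (ENSMUSG00000031799, chr8:72134975-72153142), a short tropomyosin of podosomes and other motile structures, read 129, 126, 154 and 144 CPM in control libraries. In So(d18:1) libraries it read 125, 125, 128 and 131 CPM. The So(d18:1) values lay together, from just under the lowest control value to just above it, while control 3 and control 4 stood above all others. The log2 fold change was -0.12 (SE 0.055, 95% interval -0.24 to -0.0072) and did not pass the threshold after adjustment. Without control 3 it was -0.065. Of its 50-base words, 15.7% occur elsewhere in the transcriptome, and the antisense gene Gm26586 covers 6.08% of its exons.

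Tpm1 (ENSMUSG00000032366, chr9:67022590-67049406), from which muscle and non-muscle tropomyosins are both made, read 37.1, 37.3, 35.4 and 37.5 CPM in control libraries and 31.7, 36.8, 36.5 and 35.7 CPM in So(d18:1) libraries. So(d18:1) 1 was the lowest of the 8, and the other libraries overlapped. The log2 fold change was -0.065 (SE 0.060), with a 95% interval of the fold from 0.877 to 1.04. Tpm2 (ENSMUSG00000028464, chr4:43514711-43523765), the tropomyosin of muscle and of fibroblasts, was barely counted, with 10, 27, 14 and 17 counts in control and 8, 17, 9 and 11 counts in So(d18:1) libraries. Its log2 fold change of -0.44 had a 95% interval from -1.17 to 0.29, so that a difference was not detectable at this depth.

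The make-up of the family was close to the same in both groups. Per kilobase, Tpm3 held 68.9% ± 1.62 of the tropomyosin reads in control and 70.0% ± 0.771 in So(d18:1) libraries (SD, n = 4 each). Tpm4 held 26.3% ± 1.85 and 25.2% ± 0.597, and Tpm1 held 4.61% ± 0.216 and 4.59% ± 0.319. Tpm2 held 0.199% ± 0.0729 in control and 0.154% ± 0.0482 in So(d18:1) libraries. Each mean differed by less than the SD of the control libraries. The split between Tpm3 and Tpm4 depends on the length used, because the exon length of Tpm4 in the deposited table (4269 bases) is longer than that in GENCODE M21 (2203 bases). With the latter, Tpm3 held 55.3% and Tpm4 40.8% in control libraries.

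**Figure D2:**
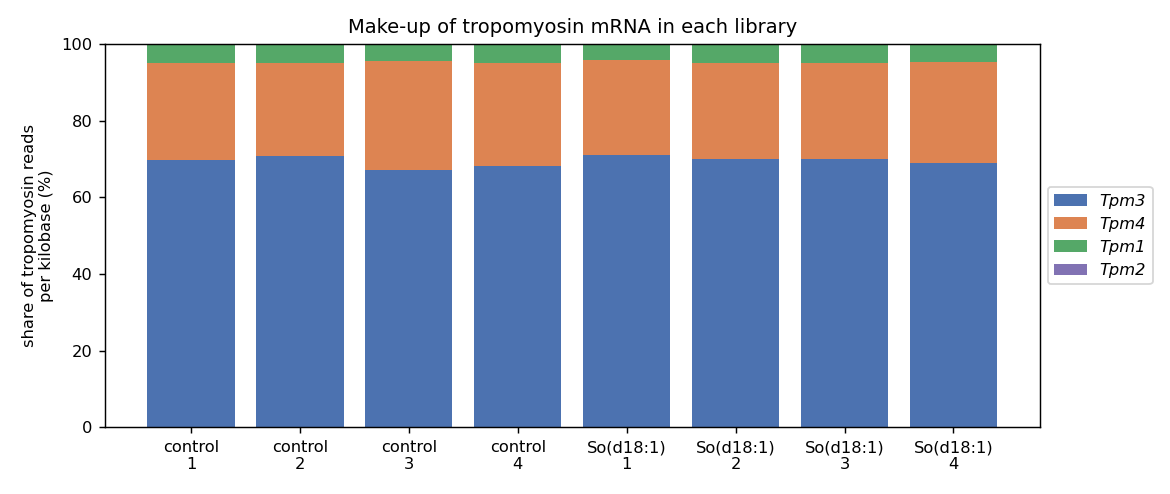
Share of tropomyosin reads per kilobase (%, exon length of the deposited table) held by each gene in each of the 8 libraries. Tpm3 is the largest share everywhere, Tpm4 the next and Tpm1 a thin band, and Tpm2 is too small to be seen.

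The smooth muscle type genes were all low in BMDM. Acta2 (ENSMUSG00000035783, chr19:34241090-34255590), the actin of smooth muscle and myofibroblasts, read 3.18, 3.70, 3.71 and 3.51 CPM in control libraries and 4.09, 3.66, 2.92 and 5.24 CPM in So(d18:1) libraries. The So(d18:1) values lay on both sides of the control values, from the lowest to the highest of all 8. The log2 fold change was 0.18 (SE 0.17, 95% interval -0.16 to 0.53). The spread between libraries was 24.4% of the mean in So(d18:1) and 7.10% in control libraries.

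Tagln (ENSMUSG00000032085, chr9:45929619-45936058) encodes transgelin, a calponin-like protein that binds actin. It had 22, 10, 24 and 17 counts in control and 17, 12, 11 and 30 counts in So(d18:1) libraries. The groups overlapped over nearly their whole range, and the log2 fold change of 0.060 had an SE of 0.35. Its sign changed when any of 3 libraries was left out: -0.20 without So(d18:1) 4, -0.17 without control 2 and -0.011 without So(d18:1) 1. The antisense gene Gm48529 covers 62.4% of the Tagln exons and had 19 to 55 counts per library, and without a stated strand setting the reads of the pair cannot be told apart.

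Cald1 (ENSMUSG00000029761, chr6:34598500-34775473) encodes caldesmon, which holds back the myosin ATPase on actin filaments. It read 2.79, 3.22, 4.09 and 3.96 CPM in control libraries and 2.19, 2.44, 3.12 and 2.25 CPM in So(d18:1) libraries. In 3 of 4 So(d18:1) libraries it was below the lowest control library, and So(d18:1) 3 lay within the control range. The log2 fold change was -0.50 (SE 0.18, 95% interval -0.87 to -0.13) and did not pass the threshold after adjustment.

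Myl9 (ENSMUSG00000067818, chr2:156775420-156781658) encodes the regulatory light chain of smooth muscle myosin. It had 5, 6, 13 and 16 counts in control libraries and 4, 0, 0 and 2 counts in So(d18:1) libraries. All So(d18:1) libraries were below all control libraries, but So(d18:1) 1 (0.224 CPM) was close to control 2 (0.239 CPM) and control 1 (0.241 CPM). Of all tested genes, which do not include Myl9, 15.0% had groups that did not overlap. Summed, 40 counts in control (exact Poisson 95% interval 28.6 to 54.5) stood against 6 in So(d18:1) libraries (2.202 to 13.1), a ratio of control over So(d18:1) of 6.01 (95% interval 2.53 to 17.3). These intervals cover counting error only. A count of 0 allows up to 0.136 CPM in So(d18:1) 2 and 0.156 CPM in So(d18:1) 3. The lowest control value, 0.239 CPM in control 2, rests on 6 counts and has a counting error of its own. These bounds therefore do not separate single libraries, and the gene was listed with this difference known. Myl9 was the only one of the 10 genes that had too few counts to enter the test.

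**Figure D3:**
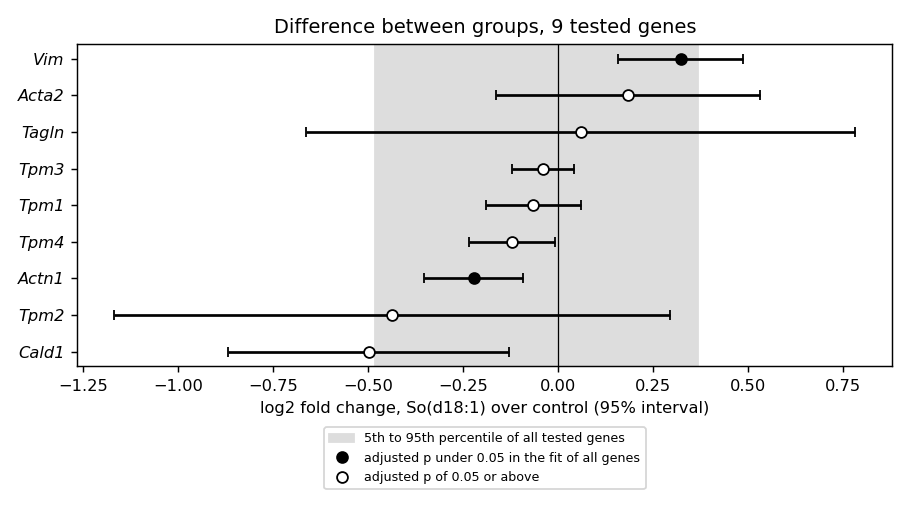
Log2 fold change, So(d18:1) over control, with 95% interval for the 9 genes that had enough counts to be tested. The shaded band is the 5th to 95th percentile of all tested genes (-0.48 to 0.37). Filled points (Vim, Actn1) had an adjusted p under 0.05 in the fit of all genes, and the intervals of Tagln and Tpm2 are the widest.

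Of the 9 tested genes, 3 had a log2 fold change above 0 and 6 below it. Their median was -0.065, against 0.0036 over all genes tested. Vim rose and Actn1 fell past the threshold of an adjusted p under 0.05, which 8.94% of all tested genes passed, 3.87% higher and 5.07% lower. The same 2 genes were called by DESeq2 (10.9% of all genes it tested) and by limma-voom (8.47%). Myl9 was called as well when no filter on low counts was used (6.14%), on 40 counts in control against 6 in So(d18:1) libraries. Without that filter some genes, though not all, had a far smaller adjusted p at nearly the same fold change. For Tns1 it was 1.08e-12 against 0.00378 by edgeR's quasi-likelihood test. None of the 9 passed the thresholds of the study's methods (an unadjusted p under 0.05 and a fold of at least 1.5), which 3.89% of all genes passed. By edgeR, 4 of the 9 had an unadjusted p under 0.05 (Tpm4, Cald1, Actn1 and Vim), against 23.4% of all genes. DESeq2 and limma-voom also placed 0 of the 9 past the study's thresholds. As the genes were listed with this comparison known, nothing is read from these counts.

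Actn1 (ENSMUSG00000015143, chr12:80167547-80260371) encodes alpha-actinin-1, which crosslinks actin filaments in stress fibres, focal adhesions and podosomes. It read 115, 122, 143 and 139 CPM in control and 112, 105, 112 and 116 CPM in So(d18:1) libraries. In 3 of 4 So(d18:1) libraries it was below the lowest control library, and control 3 and control 4 were the highest of all. The mean fell from 129.9 ± 13.5 to 111 ± 4.49 CPM (SD over 4 libraries each). The log2 fold change was -0.22 (SE 0.062), a fold of 0.857 (95% interval 0.784 to 0.938). The call was kept in 2 of the 8 fits that left out 1 library, without control 1 or control 2. It was lost without control 3 (-0.17), control 4 (-0.19), So(d18:1) 1 (-0.23), So(d18:1) 2 (-0.19), So(d18:1) 3 (-0.22) or So(d18:1) 4 (-0.24). The other non-muscle alpha-actinin, Actn4, had means of 132.9 ± 9.63 and 135 ± 4.91 CPM, with a log2 fold change of 0.025 (SE 0.051). The difference between Actn1 and Actn4 was not tested.

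Vim (ENSMUSG00000026728, chr2:13573927-13582826) was the most abundant of the 10 genes by exon length and the only one called higher. It read 725.4, 691, 600.4 and 644 CPM in control libraries and 806, 924, 725.9 and 874 CPM in So(d18:1) libraries. The groups did not overlap, but control 1 (725.4 CPM) and So(d18:1) 3 (725.9 CPM) were nearly level. Of all tested genes, 15.0% had groups that did not overlap. The mean rose from 665 ± 54.6 to 832 ± 85.9 CPM (SD over 4 libraries each). The log2 fold change was 0.32 (SE 0.076), a fold of 1.25 (95% interval 1.12 to 1.40). Leaving out 1 library gave 0.27 to 0.39. The call was kept in 6 of 8 such fits and lost without control 4 (0.31) or So(d18:1) 4 (0.30).

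Some markers of other cell types moved with some of these genes. The marker lists were chosen with earlier results of these data known. All 8 neutrophil markers were lower with So(d18:1). Of these, 4 passed the threshold, against 5.07% of all tested genes called lower (S100a8, S100a9, Mpo and Elane, log2 fold changes of -0.51, -0.47, -0.43 and -0.41). The summed level of the 8 markers was 1124, 1105, 1513 and 1322 CPM in control and 952, 859, 893 and 964 CPM in So(d18:1) libraries. None of the 8 genes was at 0 in any library. Control 3 and control 4, the highest in this sum, were also the highest in Tpm4, Actn1, Cald1 and Myl9. With the group means removed, the 9 tested genes were set beside the sums of 5 marker lists (45 pairs), and 5 pairs had an r beyond 0.7 in either direction. The neutrophil sum went with Tpm4 (Pearson r = 0.952, Spearman rho = 0.952) and with Actn1 (r = 0.924, rho = 0.952) over the 8 libraries. Without the 2 libraries farthest from the median these r were 0.848 and 0.951. With Vim the r was -0.590. The other 3 pairs were Tpm3 with the megakaryocyte and platelet sum (r = -0.877), and Vim (r = 0.834) and Actn1 (r = -0.748) with the sum of dividing cell markers. The megakaryocyte and platelet sum was higher with So(d18:1) although 5 of its 6 markers were lower, so it does not stand for the 6 alike. Among the 36 pairs of the tested genes (median r -0.020), 3 were beyond 0.7: Tpm4 with Actn1 (r = 0.906), Tpm2 with Tagln (r = -0.870) and Cald1 with Vim (r = -0.790). Tpm2 and Tagln had at most 30 counts per library. How many pairs would lie beyond 0.7 by chance was not worked out, so nothing is read from these counts of pairs. The points share library depth and cell make-up, and the part of these markers in the differences was not tested.

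**Figure D4:**
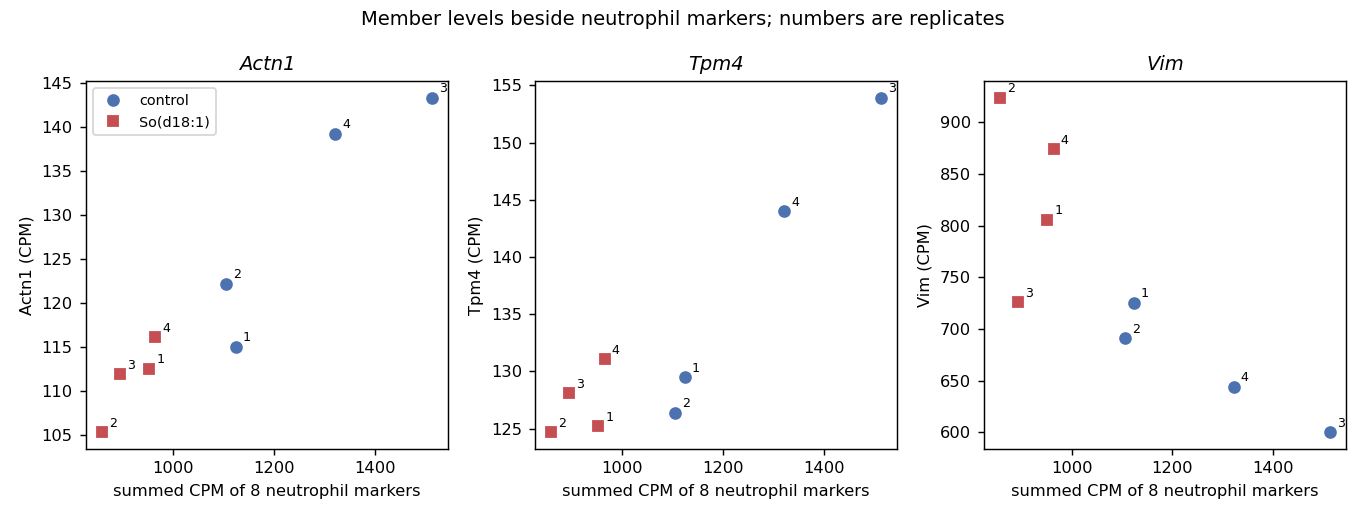
Level of Actn1, Tpm4 and Vim (CPM, axes not from 0) against the summed CPM of 8 neutrophil markers in control libraries (circles) and So(d18:1) libraries (squares), numbered by replicate. Control 3 and control 4 are farthest right, highest in Actn1 and Tpm4 and lowest in Vim.

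Markers of dividing cells moved with Vim. All 6 were higher with So(d18:1), of which Aurkb passed the threshold (log2 fold change 0.48), against 3.87% of all tested genes called higher. The summed level of the 6 markers was 325, 355, 261 and 273 CPM in control and 379, 545, 372 and 407 CPM in So(d18:1) libraries. So(d18:1) 2 was the highest library in this sum and in Vim, and control 3 the lowest in both. With the group means removed, the sum and Vim had a rho of 0.881 over 8 libraries, and an r of 0.896 without the 2 libraries farthest from the median. Their part in the Vim difference was not tested. Fibroblast markers summed to 7.76 to 11.6 CPM in control and 6.60 to 9.82 CPM in So(d18:1) libraries, and smooth muscle and pericyte markers, Des among them, to 3.61 to 5.06 and 4.31 to 6.77 CPM. Vim itself was at 600.4 CPM in its lowest library, and the part of such cells in its level or its difference was not tested. Endothelial markers summed to 36.7 to 46.6 CPM in control and 31.99 to 39.8 CPM in So(d18:1) libraries, dendritic cell markers to 6.20 to 8.56 and 6.79 to 8.80 CPM, and skeletal muscle markers to 4.43 to 6.27 and 5.22 to 6.47 CPM, with 3 of the 8 at 0 everywhere. Of 6 megakaryocyte and platelet markers, Pf4 rose (log2 fold change 0.76) and the other 5 were lower without passing the threshold (median of the 6, -0.47). Their sum, 228 to 259 CPM in control and 357 to 429 CPM in So(d18:1) libraries, was higher.

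Other genes of the same structures were read from lists that hold none of the 10 genes. Of 122 such genes, 98 were tested and 15 passed the threshold, 9 higher and 6 lower. That is 15.3% of those tested, against 8.94% of all genes, and their median log2 fold change was 0.016 against 0.0036. These lists, too, were chosen with earlier results of these data known, so nothing is read from this share. The adjusted p-values below are from edgeR's quasi-likelihood test with Benjamini-Hochberg adjustment over all 14514 genes.

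Of 19 other smooth muscle genes, 12 were tested, and Des rose and Tns1 fell. Des encodes desmin, the intermediate filament protein of muscle and a partner of vimentin in filaments. It had 6, 9, 10 and 2 counts in control and 20, 25, 43 and 23 counts in So(d18:1) libraries, so that each So(d18:1) library was above each control library (log2 fold change 2.19, SE 0.40, adjusted p = 0.00129). Its highest level, in So(d18:1) 3, was 2.24 CPM. Tns1 encodes tensin-1, which links actin to integrins, and fell from 39.1 ± 5.35 to 27.0 ± 3.21 CPM (log2 fold change -0.54, SE 0.099, adjusted p = 0.00378). Both held in all 8 fits that left out 1 library. The 7 genes with too few counts were Actg2, Myh11, Cnn1, Lmod1, Synpo2, Ppp1r14a and Pdlim3.

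Among the 5 genes of the non-muscle actins, calponins and transgelin-2, Tagln2 and Actg1 rose. Tagln2, the transgelin of leukocytes, rose from 93.2 ± 6.84 to 120.3 ± 9.88 CPM (log2 fold change 0.37, SE 0.061, adjusted p = 0.000663), without overlap between the groups. Its muscle relative Tagln reached 1.16 CPM at most. Actg1, cytoplasmic gamma-actin, lay at 1012 ± 27.5 and 1123 ± 61.6 CPM (0.15, SE 0.045, adjusted p = 0.0412), and 37.4% of its 50-base words occur elsewhere. The call of Actg1 was kept in 2 of the 8 fits without 1 library. Actb, cytoplasmic beta-actin, lay at 4081 ± 237 and 3820 ± 122 CPM (-0.095, SE 0.047, adjusted p = 0.224).

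Among 19 tested genes of non-muscle myosin and its regulation, Diaph1 rose (0.15, adjusted p = 0.0287). Diaph1 is a formin that lengthens unbranched actin filaments. Among 21 tested crosslinkers and adhesion genes, Lcp1, the leukocyte plastin that bundles actin, fell from 1477 ± 20.5 to 1295 ± 26.4 CPM (-0.19, adjusted p = 0.00367). Of 32 tested genes of filament dynamics, 3 rose and 3 fell. Tmsb10, which binds actin monomers, rose by 0.29 (adjusted p = 0.0384), and Coro1a, a coronin of leukocytes, rose by 0.17 (adjusted p = 0.00904), both as log2 fold changes. Ezr, which ties the membrane to actin, fell by 0.25 on the log2 scale (adjusted p = 0.00974), and Marcks, a membrane protein that binds actin, fell by 0.21 on the log2 scale (adjusted p = 0.00239). The others were Tmod3, a cap of tropomyosin-coated filament ends (0.14, adjusted p = 0.0384), and Actr3 of the Arp2/3 complex (-0.14, adjusted p = 0.0282), both named after their values were seen. Of these, Coro1a, Ezr, Marcks and Lcp1 were called in all 8 fits without 1 library, Actr3 in 4, Diaph1 in 3, Tmsb10 in 2 and Tmod3 in 1.

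SRF and its cofactors were not called by edgeR, DESeq2 or limma-voom, and by edgeR 0 of the 3 with enough counts reached an unadjusted p of 0.05. Srf lay at 33.3 and 33.8 CPM (log2 fold change 0.020, SE 0.057, adjusted p = 0.874), Mrtfa at 99.2 and 100.9 CPM (0.023, adjusted p = 0.813) and Mrtfb at 60.3 and 59.2 CPM (-0.027, adjusted p = 0.808), means of control and So(d18:1) libraries. Myocd, the cofactor of muscle, had 0 to 3 counts per library. Of 7 tested genes of other intermediate filaments and linkers, Lmna, a nuclear lamin, rose (0.23, adjusted p = 0.0139) and Dst, a linker between filament systems, fell (-0.30, adjusted p = 0.0244). Without 1 library, Lmna was called in 5 and Dst in 4 of 8 fits.

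**Figure D5:**
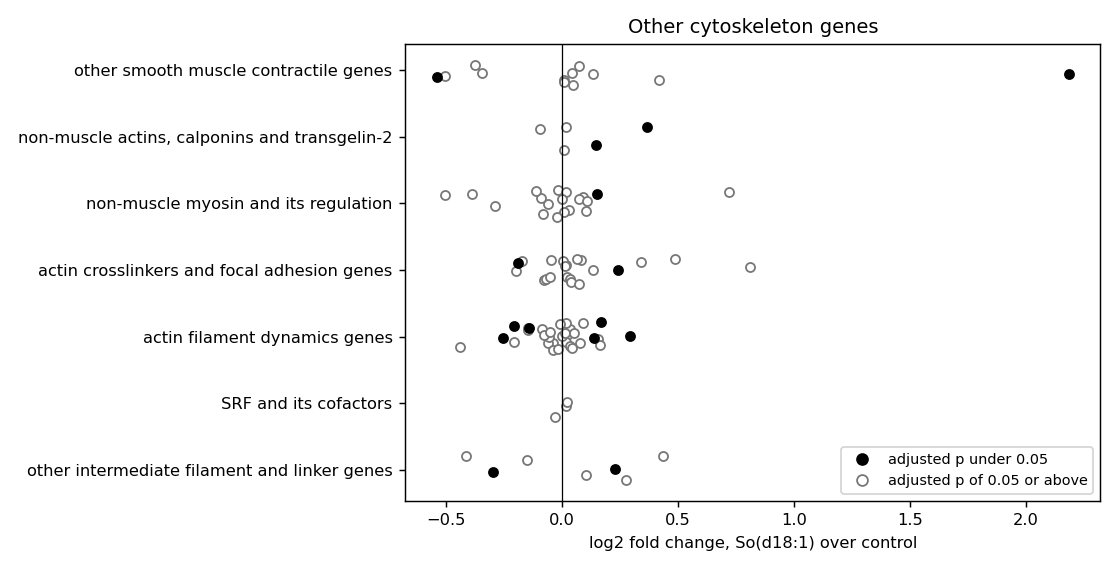
Log2 fold change, So(d18:1) over control, of the tested genes in 7 lists that hold none of the 10 genes, 1 point per gene. Filled points had an adjusted p under 0.05 over all genes. Des stands alone at 2.19, and most points lie close to 0.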

How the data were processed

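Poly(A) RNA of 8 BMDM libraries was sequenced. The authors deposited unnormalized whole-number counts per gene, made with Trim Galore 0.6.7 (trimming), HISAT2 2.2.1 (alignment to mm10) and featureCounts 2.0.1 (counting). The annotation release, the strand setting and the handling of reads with several matches are not given in the sources used here. Symbols and positions were taken from GENCODE M21 on GRCm38 (52081 of 55357 identifiers matched), and promoters from RefSeq on GRCm38.p6. Samples were grouped by the labels.

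Counts were filtered by filterByExpr, scaled by TMM and tested with edgeR 4.0.16 (robust quasi-likelihood F test) in R 4.3.3, with Benjamini-Hochberg adjustment over all 14514 tested genes and a threshold of 0.05. SE and 95% intervals are those of the log2 fold change. CPM per library have no added count, and log2 CPM used a prior count of 2. Per-kilobase levels used the exon lengths in the deposited table. The model was tested on simulated data.

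The 10 genes, the lists of other cytoskeleton genes and the marker lists were chosen with earlier results of these data known, so no p is printed for the 10 genes. The rule for names took all 10 genes, the 4 largest called changes of each list, SRF and its cofactors, Actb, Actg1, Actn4, the called markers and the defining markers. A gene that this rule names is not reported here. Alternatives were DESeq2 size factors, upper quartile scaling, library size alone, no filter, at least 10 counts in every library, a replicate block, DESeq2 1.42.0, limma-voom (limma 3.58.1), other gene lengths and each library left out in turn; the length of GENCODE M21 was added after seeing the data. Figures were drawn with matplotlib 3.10.9.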

Additional observations from a re-analysis of the deposited data

Results flagged for a closer look

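Among 26 groups of 4 libraries examined, 3 held a library far from the others by Dixon's ratio at the 95% level, where chance alone gives 1.3. Control 3 stood apart in Tpm1 (ratio 0.846), with a log2 CPM of 5.15 against 5.22 to 5.23 in the other control libraries. So(d18:1) 2 stood apart in Tpm2 (ratio 0.847), with a log2 CPM of -0.22 against -0.95 to -0.84, and in the share of Tpm2 among tropomyosin reads (ratio 0.899), with 0.226% against 0.125% to 0.135%. The Tpm2 values rest on 17 counts in So(d18:1) 2 and on 8, 9 and 11 counts in the others. Both Tpm2 flags come from these same reads, so the groups are not independent and no excess over chance is read from the flags.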

How the results depend on the processing

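Of 297 values under settings other than leaving out a library, 279 kept their direction and their side of the threshold and none was reversed. Of the rest, 3 were weaker, none was stronger, and the remaining values fell in none of these classes. Those 3 were the only log2 fold changes that did not keep their side of the threshold. A gene that a setting did not test gave no value there. The number of genes called over all genes lay between 1230 (limma-voom) and 1784 (replicate block), and Vim and Actn1 were called under each of these settings, and Myl9 also without the filter on low counts. Calls were lost with upper quartile scaling for Actg1 (0.14), Tmod3 (0.13) and Tmsb10 (0.28). The replicate block gave 1784 genes, 2 of the 10 genes and 21 of the other cytoskeleton genes, against 1298, 2 and 15 without it. Libraries with the same number did not deviate together (r of -0.0035, 0.10, 0.033 and 0.0091), and 1 of the 4 control libraries (replicate 2) correlated best with its own number, so the numbers were not taken as pairs.

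Leaving out 1 library gave 815 to 1370 genes over all genes (lowest without So(d18:1) 2), 0 to 2 of the 10 genes (0 without control 4 and without So(d18:1) 4) and 8 to 16 of the other cytoskeleton genes (8 without So(d18:1) 4, 9 without So(d18:1) 2, 10 without control 1 or control 4). Log2 fold changes that changed sign ranged from -0.20 to 0.22 for Tagln, -0.10 to 0.11 for Pdgfrb, -0.0022 to 0.041 for Srf, -0.0016 to 0.041 for Mrtfa, -0.051 to 0.0047 for Mrtfb, -0.018 to 0.059 for Actn4 and -0.48 to 0.040 for Col1a1. None of these 7 genes was called. Tpm2 ranged from -0.68 to -0.16.

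Shares of tropomyosin reads depend on the length used, in control and So(d18:1) libraries. Without division by length they were 5.32% and 5.28% for Tpm1, 0.103% and 0.0794% for Tpm2, 74.6% and 75.5% for Tpm3, and 19.96% and 19.1% for Tpm4. With GENCODE M21 exon lengths they were 3.70% and 3.71% for Tpm1, 55.3% and 56.6% for Tpm3, and 40.8% and 39.6% for Tpm4. By the longest coding length, 4 of the 10 genes kept their place in the order of levels, and by M21 exon length all 10 did. Depth limits Tpm2, Tagln and Myl9, each with at most 30 counts per library.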
